A study of Mus musculus with 4 samples.

Results

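Thymocytes that pass selection change the set of costimulatory and inhibitory receptors on their surface, and 10 of these receptors are described here at the level of their transcripts. They are Cd69, Cd5, Cd6, Cd28, Cd2, Pdcd1, Ctla4, Cd200, Tnfrsf9 and Tnfrsf4. The genes were taken by symbol from the gene list of the deposited count tables, and all 10 were found among 21926 genes. Their levels were followed through the thymocyte stages of a WT mouse and of an Eif4g2 cKO mouse, in which the translation factor eIF4G2 is deleted from T cells.

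The WT library came from a mouse with the genotype Eif4g2 flox/flox and no Cre, and the cKO library from a mouse with CD4-Cre and Eif4g2 flox/flox. Both mice were labelled female and 5 weeks old, both libraries were labelled batch1, and the thymus cells were not sorted. The floxed alleles were thus present in both mice, and the Cd4 promoter that drives Cre becomes active around the DP stage, so DN cells are not a deleted population. There was 1 library per genotype, so no test was possible between WT and cKO. Every interval below is a 95% interval that covers counting error only, and a difference between libraries cannot be told apart from a difference between these individual mice.

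Selection is read by the thymocyte through the strength of its T cell receptor signal. CD69 and CD5 are the classical surface signs of that signal: CD69 appears soon after engagement and holds cells in the thymus by lowering S1PR1 from the surface, and CD5 is a scavenger-type receptor that dampens signalling in proportion to it. CD6 is a relative of CD5, CD28 is the main costimulatory receptor for CD80 and CD86, and CD2 is an adhesion receptor that binds CD48 in the mouse. PD-1 (Pdcd1) and CTLA-4 are inhibitory receptors, CD200 is the ligand of an inhibitory receptor on myeloid cells, and 4-1BB (Tnfrsf9) and OX40 (Tnfrsf4) are costimulatory receptors of the TNF receptor family that are induced by strong stimulation.

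The tables held 6014 WT and 4335 cKO barcodes with 18355050 and 18056277 UMIs (unique molecular identifiers, each standing for a captured transcript). The lowest UMI count of a barcode was 1000, and the medians were 1732.5 and 2140.0. The libraries share 1055 barcode names, which are running numbers and not sequences. UMIs of the Y chromosome genes Kdm5d, Eif2s3y and Uty summed to 2542 in the WT library and to 1 in the cKO library, so the WT library goes against its label as female. Ddx3y, a further Y chromosome gene with a near-identical copy on the X chromosome, had 1427 UMIs in WT and 510 in cKO and was left out of this sum. Sex and genotype cannot be told apart in any comparison between these libraries. Eif4g2 itself was counted at 223 CPM (counts-per-million, the UMIs of a gene over all UMIs of the cells considered) in WT and 274 CPM in cKO. This does not check the deletion, because a 3' tag need not lie in the deleted part of the gene.

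Cells were clustered without the 10 receptors, and the clusters were named from markers of each stage. DN-like cells, the early CD4- CD8- stage, numbered 97 in WT and 131 in cKO. DP-like cells, which carry both coreceptors and have not yet been selected, numbered 3339 and 2116. Early post-selection-like cells, marked by Itm2a, Tox, Egr and Nr4a genes, numbered 607 and 447, and mature SP-like cells, marked by Klf2, Ccr7 and Ms4a4b, numbered 819 and 289. The 12 early post-selection markers together reached 6028 and 4404 CPM in the larger early cluster of WT and cKO, compared with 910.09 and 693 CPM in DP-like cells. A class was not always highest in its own list. In DN-like cells the 8 DN markers summed to 1519 and 1059 CPM and the 9 DP markers to 1906 and 1381 CPM. In mature SP-like cells the 7 mature SP markers summed to 1861 and 1143 CPM, the early markers to 2382 and 2097 CPM and the DP markers to 2075 and 2029 CPM. The mature SP sum of the 14 cKO NKT or gamma delta T-like cells, 1918 CPM, was above that of the cKO mature SP-like cells. No cluster was named for Treg cells. Different clusters held most DP-like cells of the libraries, with 2425 WT but 116 cKO cells in cluster 0, 218 and 1950 in cluster 1, and 696 and 50 in cluster 5. Ratios of DP-like cells are therefore also given within clusters.

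The early post-selection-like class consisted of a pair of clusters. Cluster 3 (533 WT and 419 cKO cells) was led by Cd5, Tox, Hivep3 and Egr1, and Cd28 and Cd2 were also among its 10 leading genes. Cluster 10 (74 and 28 cells) was led by Nr4a1, Tnfrsf9, Nr4a3, Gadd45b and Nr4a2, and also held Cd69 among its 10 leading genes. Nr4a1, Nr4a2 and Nr4a3 are immediate early genes of receptor signalling.

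Among the 10 receptors, 9 were higher by more than 1 on the log2 scale in early post-selection-like than in DP-like cells of the WT library, Ctla4 being the exception. The same was true of 3.85% of all 8518 genes for which the classes together held 50 UMIs or more. In the cKO library 7 of the 8 receptors with enough UMIs were higher by that much, compared with 2.61% of 7561 genes. The receptors did not enter the clustering, but genes that move with them did, so these steps are descriptions of the classes and not tests. The median step of all genes was -0.13 in WT and -0.21 in cKO, and that of the receptors was 3.51 and 2.99.

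**Figure D1:**
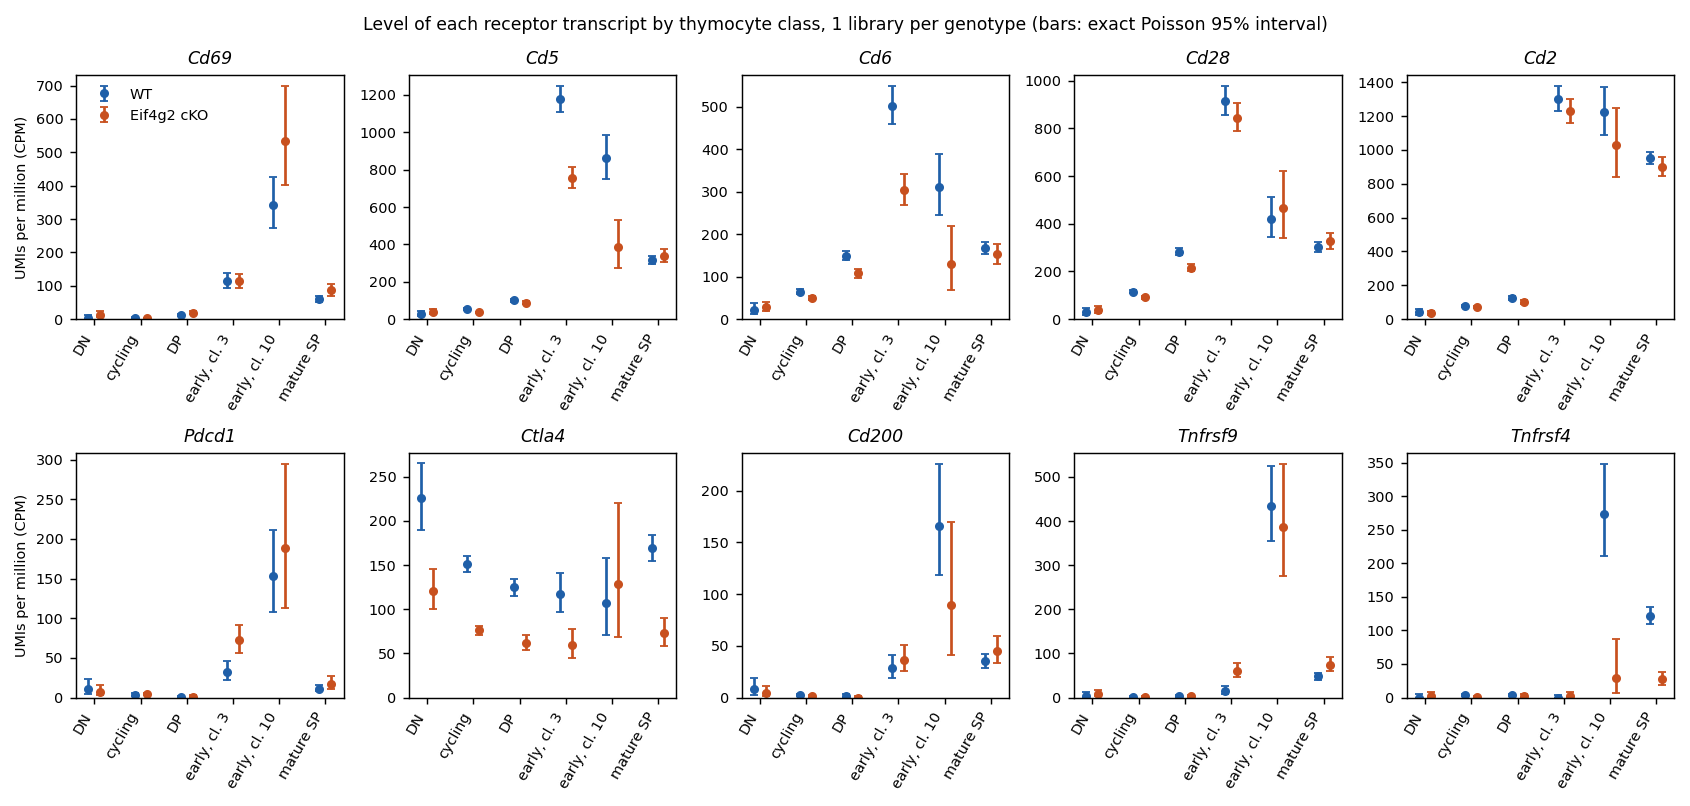
CPM of each receptor transcript (vertical axis, linear) in 6 thymocyte classes (horizontal axis) in the WT library (blue) and the Eif4g2 cKO library (orange). Points are UMI sums scaled to CPM and bars are exact Poisson 95% intervals. Cd5, Cd6, Cd28 and Cd2 were highest in early cluster 3, Cd69, Pdcd1, Cd200 and Tnfrsf9 in early cluster 10, and Ctla4 was present from the DN-like cells on.

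CD69, encoded on chr6:129267325-129275436 (minus strand, GRCm38, 4 exons after merging transcripts), was at 13.6 (WT) and 19.9 CPM (cKO) in DP-like cells. It reached 160.5 CPM (interval 139 to 185) and 154 CPM (131 to 180.37) in early post-selection-like cells, a step of 3.56 and 2.95 on the log2 scale. In mature SP-like cells it was at 61.2 and 87.1 CPM. The order was thus DP-like, mature SP-like, early post-selection-like in both libraries, with no overlap of the intervals within a library.

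Cd5 (chr19:10717116-10739002, minus strand, 11 exons) showed the same order. It was at 101 (WT) and 88.4 CPM (cKO) in DP-like cells, at 1113 CPM (1054 to 1174) and 719.65 CPM (669 to 773) in early post-selection-like cells, and at 316 and 339 CPM in mature SP-like cells. Its steps into the early class were 3.46 in WT and 3.02 in cKO. Cd6, its neighbour on the same chromosome (chr19:10789341-10830058, minus strand, 12 exons) changed less between the stages. It was at 149 and 108 CPM in DP-like cells, 463 (426 to 503) and 286.5 CPM (255 to 321) in early cells and 167 and 152 CPM in mature cells. The intervals of DP-like and mature SP-like cells overlapped in WT (138 to 159 and 152 to 182), and the mature level was higher by 0.16 on the log2 scale with an interval that reaches 0.00 (0.00 to 0.33). In cKO it was higher by 0.50 (0.23 to 0.77).

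CD28, encoded on chr1:60716800-60773359 (plus strand, 7 exons), was already at 283 CPM in WT and 215 CPM in cKO DP-like cells. It stood at 816 CPM (766 to 868) and 808 CPM (754 to 865) in early post-selection-like cells and at 302 and 327 CPM in mature SP-like cells. In WT the mature level differed from the DP-like level by 0.09 on the log2 scale (-0.03 to 0.21), so these neighbours in the order did not differ beyond counting error. In cKO the mature level was higher by 0.60 (0.42 to 0.79). Cd2 (chr3:101275899-101287939, minus strand, 4 exons) behaved differently after selection. It was at 126 and 103 CPM in DP-like cells, at 1287 CPM (1224 to 1353) and 1210.1 CPM (1144 to 1279) in early cells, and was at 953 and 901 CPM in mature SP-like cells. Its step from the early to the mature class was only -0.43 in both libraries (-0.52 to -0.34 in WT, -0.55 to -0.30 in cKO).

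Pdcd1 (chr1:94038305-94052553, minus strand, 5 exons) was close to absent in DP-like cells, with 4 UMIs in each library (0.754 and 1.16 CPM). DN-like cells held 7 UMIs in each library. The step from DN-like to DP-like cells was -3.90 (-6.12 to -1.93) in WT and -2.70 (-4.92 to -0.72) in cKO, on fewer than 50 UMIs. Pdcd1 reached 56.5 CPM (43.9 to 71.7) in WT and 83.5 CPM (66.8 to 103) in cKO early post-selection-like cells and was at 11.2 and 17.6 CPM in mature SP-like cells. Cd200 (chr16:45382135-45409053, minus strand, 7 exons) had 9 UMIs in WT and 0 in cKO DP-like cells, and stood at 55.7 and 41.8 CPM in early cells. With a floor of 3 UMIs in place of 0 in the DP-like cells, its step in cKO was 5.59 on the log2 scale. The lower end of the interval of this step was 5.23, and the step rests on 43 UMIs. It was at 35.2 and 44.9 CPM in mature SP-like cells.

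Both TNF receptor family genes lie on chromosome 4. Tnfrsf9 (chr4:150914562-150946102, plus strand, 11 exons) was at 2.83 (WT) and 3.47 CPM (cKO) in DP-like cells, at 99.8 CPM (82.7 to 119) and 92.3 CPM (74.6 to 113) in early cells, and at 48.1 and 73.9 CPM in mature cells. Its gene overlaps Camta1 on the opposite strand, and whether the counting used strand is not given in the sources used here. Camta1 was at 84.3 CPM in WT cluster 3 and 91.0 CPM in WT cluster 10, and at 63.5 and 19.8 CPM in cKO, the last on 2 UMIs. Its part in the Tnfrsf9 counts was not tested. Tnfrsf4 (chr4:156013843-156016612, plus strand, 7 exons) was at 3.58 and 2.31 CPM in DP-like cells, and at 54.9 CPM (42.4 to 69.8) in WT but 4.86 CPM (1.58 to 11.3) in cKO early cells. It was the only receptor of the 10 whose level was higher in the mature than in the early class in both libraries by more than 1 on the log2 scale, to 122 CPM in WT and 27.3 CPM in cKO, although the cKO step, with 31 and 5 UMIs, rests on fewer than 50 UMIs. Within the early class it was confined to the smaller cluster in WT, and there it was higher than in the mature cells, as described with the clusters.

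Ctla4 (chr1:60887000-60915832, plus strand, 7 exons), the neighbour of Cd28, did not follow the others. It was at 226 CPM (189.72 to 266) in WT DN-like cells, 151 CPM in cycling cells, 125 CPM in DP-like cells, 116 CPM in early cells and 169 CPM in mature SP-like cells. In cKO these levels were 121, 76.1, 61.8, 66.0 and 73.1 CPM. The step from the DP-like to the early class was -0.11 (-0.39 to 0.15) in WT and 0.09 (-0.32 to 0.49) in cKO. After thinning each cell to 1000 UMIs, 16.5% of WT DN-like cells (9.73 to 25.4%, median depth 4957.0 UMIs) and 11.9% of WT DP-like cells (10.8 to 13.005%, median depth 1404.0 UMIs) held a Ctla4 UMI. In erythroid-like cells, which should lack the gene, 2.27% did (0.0575 to 12.024%, 44 cells, median depth 6089.5 UMIs). Without thinning these shares were 67.0%, 17.2% and 9.09%. The 63 WT antigen-presenting-like cells, also outside the T lineage, held 24 Ctla4 UMIs among 205167 UMIs in all. The erythroid-like share is thus not a floor for every class outside the T lineage, and doublets were not called. The gene model that was counted begins 22.02 kb upstream of the RefSeq start of Ctla4 and also spans a pseudogene, Rpl18-ps1. Their part in the Ctla4 level was not tested.

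Counted per cell after thinning to 1000 UMIs, the mean number of the 10 receptors detected was 0.330 in WT and 0.252 in cKO DN-like cells. It was 0.647 and 0.493 in DP-like cells, 2.38 and 2.29 in early post-selection-like cells and 1.59 and 1.65 in mature SP-like cells. Early cells thus held the largest number of these receptors per cell among the 4 stages in both libraries. Outside the T lineage the mean was 0.746 in WT and 0.259 in cKO antigen-presenting-like cells and 0.0909 in WT erythroid-like cells.

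**Figure D2:**
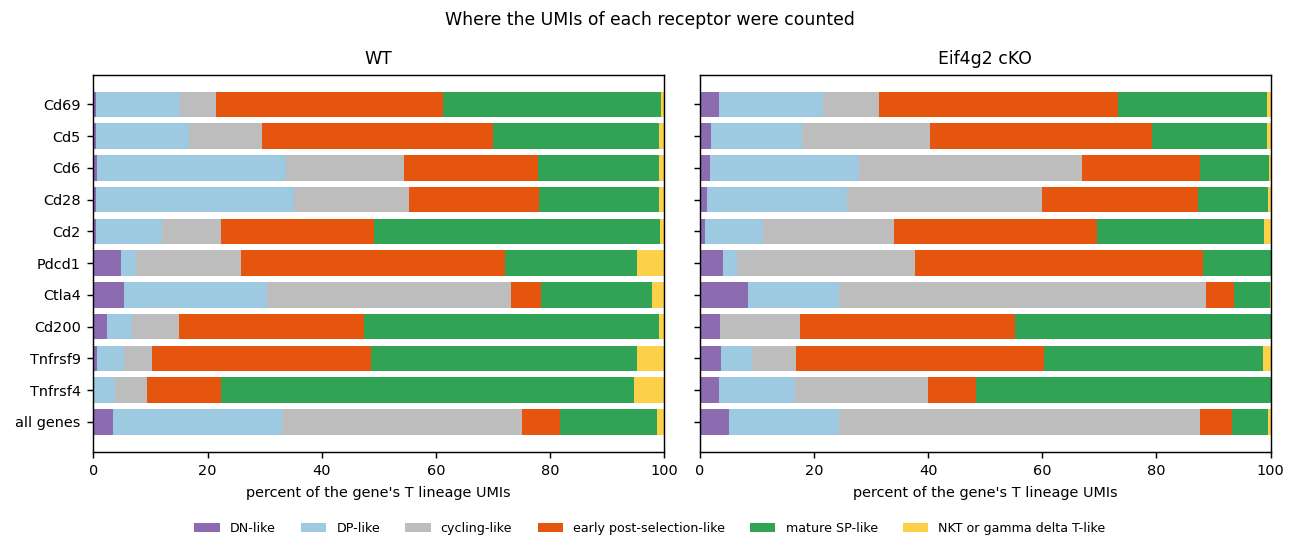
Share of each receptor's T lineage UMIs that came from each class (horizontal axis, percent), for the WT library on the left and the Eif4g2 cKO library on the right, with all genes together in the lowest bar. Early post-selection-like cells (orange) held 6.73% of all WT T lineage UMIs but 40.5% of those of Cd5, and mature SP-like cells (green) held 72.4% of those of Tnfrsf4, while early cells held 5.26% of those of Ctla4.

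The distribution of UMIs over the classes shows the same division. In WT, the early class held 6.73% of all UMIs, and it held 46.3% of the Pdcd1 UMIs, 40.5% of the Cd5 UMIs, 39.6% of the Cd69 UMIs and 38.3% of the Tnfrsf9 UMIs. For Tnfrsf4 it held 12.9%, and the mature SP-like class held 72.4%. The share for Ctla4 was 5.26%. In cKO, whose cells held 5.73% of all UMIs in the early class, the corresponding shares were 50.6% for Pdcd1, 38.9% for Cd5, 42.0% for Cd69, 43.4% for Tnfrsf9, 8.33% for Tnfrsf4 and 5.06% for Ctla4.

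Within the early class the receptors separated into those of cluster 3 and those of cluster 10. In WT, 5 of 10 were higher in cluster 10 than in cluster 3 by more than 1 on the log2 scale, namely Cd69, Pdcd1, Cd200, Tnfrsf9 and Tnfrsf4, compared with 3.42% of 4237 genes. In cKO 4 of 8 were (Cd69, Pdcd1, Ctla4 and Tnfrsf9), compared with 4.15% of 3083 genes. The median of all genes was -0.24 in WT and -0.15 in cKO, and the same numbers of receptors passed when counted from it. Genes that move with these receptors entered the clustering, so these counts too describe the clusters and are not tests. Tnfrsf9 went from 15 UMIs (15.6 CPM) in WT cluster 3 to 105 UMIs (434 CPM) in WT cluster 10, and from 56 UMIs (60.3 CPM) to 39 UMIs (386 CPM) in cKO. Tnfrsf4 was not detected among 533 WT cells of cluster 3, which allows a share of up to 0.563% of cells, and had 66 UMIs (273 CPM) in 15 of the 74 WT cells of cluster 10. With the floor of 3 UMIs in place of 0, the WT level in cluster 10 was 6.45 higher on the log2 scale. The lower end of the interval of this step was 6.11. The step from WT cluster 10 to WT mature SP-like cells was -1.16 (-1.55 to -0.76). In the 28 cKO cells of cluster 10 it had 3 UMIs, in 1 cell.

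Cd69 was at 114 CPM in WT cluster 3 and 343 CPM (273.50 to 426) in WT cluster 10, and at 113 and 535 CPM (402 to 698) in cKO. Cd200 was at 28.1 and 165 CPM in WT and at 36.6 and 89.2 CPM in cKO, where cluster 10 had 9 UMIs. The reverse held for Cd28, at 915 and 422 CPM in WT and 845 and 466 CPM in cKO, and for Cd6, at 502 and 310.28 CPM in WT and 304 and 129 CPM in cKO. Cd2 was about level between the clusters, with a difference of -0.09 (-0.28 to 0.09) in WT and -0.26 (-0.56 to 0.04) in cKO.

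Of the receptors that were higher in cluster 10, the promoter windows of Tnfrsf9, Cd200 and Tnfrsf4 are shown because NF-kB, AP-1 and EGR factors are known to act downstream of T cell receptor signals. RefSeq (GRCm38.p6) gave windows for 6 of the 10 genes, 7 windows in all because Tnfrsf9 has a pair of starts. The 250 bases before each start were searched on both strands for an NF-kB motif (GGG and TTTCC with any 2 bases between), an AP-1 motif (TGANTCA) and an EGR motif (GCGNGGGCG), where N is any base. No match overlapped another. Of all 32851 windows of this length, 1.41%, 6.75% and 4.7% held these motifs. Capitals mark the matches, which are descriptions of the letters and not sites of binding.
Tnfrsf9, downstream start, chr4:150927749-150927998, plus strand: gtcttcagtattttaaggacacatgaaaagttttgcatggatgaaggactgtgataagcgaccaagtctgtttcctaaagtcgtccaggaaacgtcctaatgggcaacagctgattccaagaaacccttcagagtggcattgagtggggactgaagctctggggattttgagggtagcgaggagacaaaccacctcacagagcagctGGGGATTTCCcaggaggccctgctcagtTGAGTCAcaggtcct
Cd200, chr16:45409054-45409303, minus strand: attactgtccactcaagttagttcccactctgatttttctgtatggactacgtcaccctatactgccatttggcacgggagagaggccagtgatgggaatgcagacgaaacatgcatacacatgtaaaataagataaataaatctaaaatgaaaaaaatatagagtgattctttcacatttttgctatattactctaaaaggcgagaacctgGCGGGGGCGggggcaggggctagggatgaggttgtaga
Tnfrsf4, chr4:156013445-156013694, plus strand: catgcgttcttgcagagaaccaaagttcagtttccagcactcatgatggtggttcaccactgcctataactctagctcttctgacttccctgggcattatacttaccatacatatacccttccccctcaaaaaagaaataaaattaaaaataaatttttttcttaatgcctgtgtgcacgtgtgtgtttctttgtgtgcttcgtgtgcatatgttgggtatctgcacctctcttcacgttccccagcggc
The downstream Tnfrsf9 window holds the NF-kB letters from 43 bases before the start and the AP-1 letters from 15 bases before it. The Cd200 window holds the EGR letters from 38 bases before the start. The Tnfrsf4 window has no match, and neither do the windows of the upstream Tnfrsf9 start, Pdcd1, Ctla4 and Cd5.

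The steps from the early to the mature SP-like class had the opposite sign for most receptors. They too are descriptions of the classes and not tests. In WT 6 of 10 were lower by more than 1 on the log2 scale (Cd69, Cd5, Cd6, Cd28, Pdcd1 and Tnfrsf9), compared with 7.5% of 7522 genes. In cKO 3 of 9 were (Cd5, Cd28 and Pdcd1), compared with 6.06% of 5096 genes. All genes together had a median of -0.30 in WT and -0.28 in cKO, and counted from that median Tnfrsf9 in WT and Cd5 in cKO were no longer past the threshold, which left 5 and 2 receptors. The step of Cd5 was -1.82 (-1.94 to -1.70) in WT and -1.09 (-1.27 to -0.91) in cKO, that of Cd6 -1.48 (-1.65 to -1.30) and -0.91 (-1.19 to -0.64), and that of Cd69 -1.39 and -0.83. Pdcd1 had the largest drop among the receptors in both libraries, -2.34 (-2.98 to -1.72) and -2.25 (-3.03 to -1.53). The sign of its step in cKO, and that of the WT steps of Tnfrsf9 and Tnfrsf4, turned under other ways of assigning the cells.

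**Figure D3:**
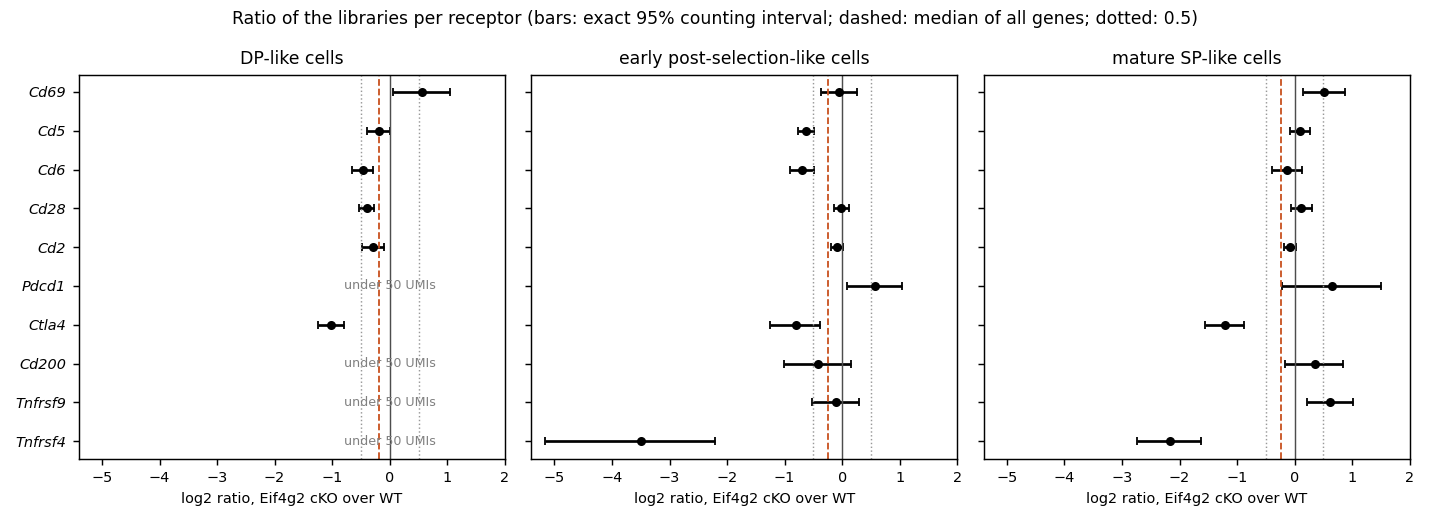
Log2 ratio of the Eif4g2 cKO library to the WT library for each receptor (rows) in DP-like, early post-selection-like and mature SP-like cells. Bars are exact 95% counting intervals, the dashed line is the median of all genes and the dotted lines are the threshold of 0.5. Ctla4 lies left of the threshold in all 3 panels and Tnfrsf4 in both panels where it had 50 UMIs.

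The cKO library was then compared with the WT library stage by stage, with the study's threshold of 0.5 on the log2 scale and at least 50 UMIs over both libraries. The median of all genes was -0.09 in DN-like, -0.18 in DP-like, -0.25 in early post-selection-like and -0.24 in mature SP-like cells, and the same numbers of receptors passed when counted from the median except where stated. In DN-like cells 1 of 4 receptors was lower (Ctla4, background 26% of 3973 genes) and 1 of 4 was higher (Cd5, background 11%). The interval of Cd5 there, with 16 and 36 UMIs, spans 0 (-0.30 to 1.53).

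In DP-like cells 1 of 6 receptors was lower (Ctla4), compared with 29.6% of 8869 genes, and 1 of 6 was higher (Cd69), compared with 8.43%. Over the 12 alternatives the number lower ran from 1 to 4, and it was 1 in only 3 of them, while the number higher became 0 in 4. Cd69 had 72 UMIs in WT and 69 in cKO, a ratio of 0.55 (0.06 to 1.05). Cd6, Cd28, Cd2 and Cd5 were at -0.47, -0.40, -0.28 and -0.19 over the whole class.

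These values compare cells that lie mostly in different clusters, and within a cluster they differed. In cluster 0 Cd69 was at -0.14 (-2.46 to 1.48) on 58 and 3 UMIs, and in cluster 1 at 0.99 (-0.62 to 3.31) on 3 and 65 UMIs, so its higher level was not seen beyond counting error inside either. In cluster 0 Cd5 was at -1.69 (-3.02 to -0.64) on 396 and 7 UMIs, Cd2 at -0.92 (-1.77 to -0.18), Cd6 at -0.73 (-1.45 to -0.09) and Cd28 at -0.09 (-0.48 to 0.28). In cluster 1, which holds most cKO cells, they were at 0.09 (-0.50 to 0.74), -0.26 (-0.75 to 0.27), -0.30 (-0.78 to 0.21) and -0.40 (-0.74 to -0.06). In cluster 5, with 50 cKO cells, Cd28 was at -1.33 (-2.47 to -0.38) on 265 and 9 UMIs, Cd2 at -0.91 (-2.38 to 0.25), Cd6 at -0.83 (-2.07 to 0.18) and Cd5 at 0.03 (-1.07 to 0.96). Pdcd1, Cd200, Tnfrsf9 and Tnfrsf4 had too few UMIs in DP-like cells for a ratio.

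In early post-selection-like cells 4 of 10 receptors were lower in cKO, Cd5, Cd6, Ctla4 and Tnfrsf4, next to 35.9% of 5819 genes. That share is near the background and says nothing particular about the receptors as a set. Pdcd1 was higher, 1 of 10, next to 7.99% of genes, at 0.56 (0.09 to 1.04) with 68 and 86 UMIs. The interval treats UMIs of the same cell as independent. Without the 1 cell of each library that held a Foxp3 UMI, Pdcd1 had 59 and 86 UMIs and a ratio of 0.76 (0.27 to 1.26). Its ratio ran from -0.26 to 1.16 over the 12 alternatives, with 1 below 0 (each library clustered alone), and the number of higher receptors became 0 in 5 of them. Cd5 had 1338 UMIs in WT and 741 in cKO, a ratio of -0.63 (-0.76 to -0.50), and Cd6 had 557 and 295, a ratio of -0.69 (-0.90 to -0.49). Both fell short of the threshold when the median ratio of all genes was set to 0, which left Ctla4 and Tnfrsf4. Cd28 and Cd2, at -0.01 (-0.15 to 0.12) and -0.09 (-0.20 to 0.02), lay below 0 but above the median of all genes.

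The lower Cd5 and Cd6 levels were present in both early clusters. In cluster 3 Cd5 was at 1176 (WT) and 756 CPM (cKO) (ratio -0.64, -0.78 to -0.50), and in cluster 10 at 861 and 386 CPM (-1.16, -1.69 to -0.66). For Cd6 the ratios were -0.72 (-0.94 to -0.51) and -1.27 (-2.24 to -0.41), the latter on 75 and 13 UMIs. After thinning, 56.3% of WT cells (52.3 to 60.3%) and 50.1% of cKO cells (45.4 to 54.8%) of the early class held a Cd5 UMI, and these intervals overlap. No erythroid-like WT cell of 44 did, which allows a share of up to 6.82%. Before thinning, the WT antigen-presenting-like cells held 24 Cd5 UMIs. In DP-like and mature SP-like cells the Cd5 ratio was -0.19 (-0.40 to 0.01) and 0.10 (-0.07 to 0.27). The early post-selection markers as a whole were also lower in cKO, with 12 of 12 above 0 in both libraries and sums of 6028 and 4404 CPM in cluster 3, and their part in the Cd5 and Cd6 values was not tested.

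Leaving out cluster 10 changed the picture for the sparse receptors. In cluster 3 alone Pdcd1 had 31 UMIs in WT and 67 in cKO (32.3 and 72.1 CPM, ratio 1.16, 0.53 to 1.82), and Tnfrsf9 had 15 and 56 (15.6 and 60.3 CPM, ratio 1.95, 1.11 to 2.88). In cluster 10 their ratios were 0.30 (-0.58 to 1.13) and -0.17 (-0.74 to 0.37). Tnfrsf9 UMIs of cluster 3 came from 9 WT and 21 cKO cells, so they rest on few cells.

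In mature SP-like cells 2 of 10 receptors were lower in cKO (Ctla4 and Tnfrsf4), compared with 35% of 7257 genes, and 3 of 10 were higher (Cd69, Pdcd1 and Tnfrsf9), compared with 8.52%. Cd69 had 186 UMIs in WT and 99 in cKO, a ratio of 0.51 (0.14 to 0.87), and Tnfrsf9 had 146 and 84, a ratio of 0.62 (0.22 to 1.02). Pdcd1 had 34 and 20 UMIs and an interval that spans 0 (-0.22 to 1.49). Cd200, at 0.35 (-0.16 to 0.84), was also past the threshold when counted from the median of all genes. These higher values did not hold under every way of assigning the cells: the Cd69 ratio turned negative under 4 of 12 alternatives and that of Tnfrsf9 under 3, and the count of higher receptors ran from 0 to 4 over the alternatives. Cd5, Cd28, Cd2 and Cd6 lay between -0.13 and 0.12.

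Ctla4 was the receptor with a lower level in cKO at every stage. Its ratio was -0.90 (-1.27 to -0.53) in DN-like cells, -0.99 (-1.12 to -0.86) in cycling cells, -1.01 (-1.24 to -0.79) in DP-like cells, -0.81 (-1.25 to -0.38) in early cells and -1.21 (-1.56 to -0.87) in mature SP-like cells. Within the DP clusters it was -1.76 (-2.98 to -0.77, on 474 and 8 UMIs) in cluster 0, -0.78 (-1.33 to -0.19, on 31 and 196 UMIs) in cluster 1 and -0.42 (-1.51 to 0.50, on 157 and 10 UMIs) in cluster 5. Early cluster 10 was the exception, at 0.26 (-0.82 to 1.27) with 26 and 13 UMIs. The DN-like interval overlaps those of the later stages. DN cells precede the known activity of the Cd4 promoter, but in this class the DP markers summed above the DN markers in both libraries. Deletion was not measured in these cells, and the cause of the lower Ctla4 level was not tested.

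Tnfrsf4 had the ratio farthest from 0 among the 10 receptors in the early and the mature class. In early cells it had 66 UMIs in WT and 5 in cKO, a ratio of -3.50 (-5.17 to -2.20), and in mature SP-like cells 370 and 31, a ratio of -2.16 (-2.74 to -1.63). In the larger mature cluster 2, with 337 and 30 UMIs, the ratio was -2.08 (-2.67 to -1.54). All 66 WT UMIs of the early class lay in cluster 10, and that cluster had 74 WT and 28 cKO cells. After thinning, 7.57% of WT mature cells (5.85 to 9.60%, median depth 3310.0 UMIs) and 2.77% of cKO mature cells (1.20 to 5.38%, median depth 3343.0 UMIs) held a Tnfrsf4 UMI; among erythroid-like WT cells 0 of 44 did, which allows a share of up to 6.82%.

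OX40 is known from Treg cells and their thymic precursors and from activated CD4+ T cells, so the mature class was divided further. This division was chosen after the values had been seen. Foxp3, the defining Treg gene, had 46 UMIs in 19 WT cells and 6 UMIs in 4 cKO cells of the mature class, and the 7 Treg markers together were at 532 and 449.78 CPM, with 7 of 7 above 0 in both libraries. Without the cells that held a Foxp3 UMI the Tnfrsf4 ratio was -2.32 (-2.98 to -1.72) and that of Ctla4 was -1.23 (-1.59 to -0.88), both as large as with them. Foxp3 UMIs were sparse, and a cell without one may still be a Treg cell or a precursor. The part of such cells in these ratios was therefore not tested. In the early class Foxp3 had 1 UMI in each library. The 7 Treg markers together were at 876 and 712 CPM in cluster 3. In cluster 10, which held the WT Tnfrsf4 UMIs of the early class, they were at 2234 and 1833 CPM, with 4 of 7 above 0 in cKO. Ikzf2, which is also an early post-selection marker, was among the leading genes of cluster 10. The part of Treg precursors in the early Tnfrsf4 ratio was not tested.

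**Figure D4:**
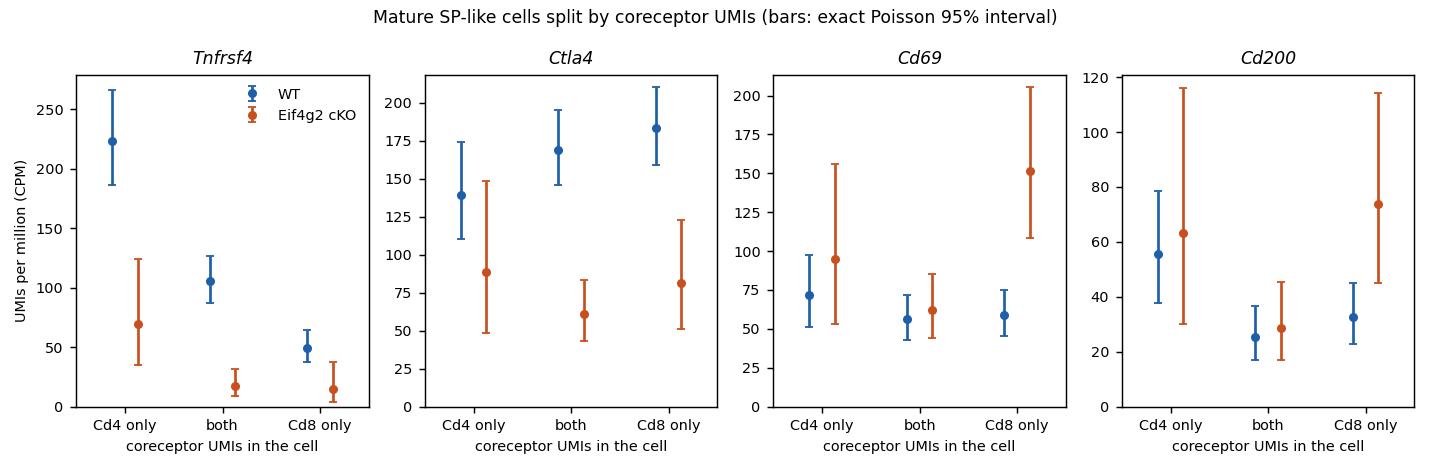
CPM of Tnfrsf4, Ctla4, Cd69 and Cd200 (vertical axes, linear) in mature SP-like cells with UMIs of Cd4 only, of both coreceptors or of Cd8a or Cd8b1 only (horizontal axis), WT in blue and Eif4g2 cKO in orange. Bars are exact Poisson 95% intervals. Of these 3 groups Tnfrsf4 is highest in Cd4-only cells, and it is lower in cKO in each, and Cd69 is higher in cKO in the Cd8-only cells.

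Of the WT mature SP-like cells, 21.5% (18.7 to 24.5%) held UMIs of Cd4 only and 34.9% (31.7 to 38.3%) of Cd8a or Cd8b1 only. In cKO these shares were 19.0% (14.7 to 24.0%) and 23.9% (19.1 to 29.2%), and cells with UMIs of both made up 48.1% (42.2 to 54.0%) compared with 30.6% (27.5 to 33.9%) in WT. Tnfrsf4 was at 223 CPM in the WT Cd4-only cells, 106 CPM in the cells with both and 49.6 CPM in the Cd8-only cells. In cKO it was at 69.4, 17.6 and 14.8 CPM, the last on 4 UMIs. Cells with no coreceptor UMI, which include shallow cells, were at 278 CPM in WT and 62.1 CPM in cKO, the latter on 5 UMIs. The ratios of the first 3 groups were -1.69 (-2.73 to -0.80), -2.59 (-3.63 to -1.70) and -1.75 (-3.67 to -0.31), and that of the cells with none was -2.16 (-3.83 to -0.87), so the lower level was present in all 4 groups. A cell without a UMI of a coreceptor may still carry it.

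Cd69 was past the threshold in the Cd8-only cells, where it was at 58.6 (WT) and 151 CPM (cKO) (ratio 1.37, 0.77 to 1.95). In cells with both coreceptors the ratio was 0.15 (-0.46 to 0.75) and in Cd4-only cells 0.40 (-0.56 to 1.29). The Cd8-only interval does not overlap that of the cells with both but overlaps that of the Cd4-only cells, and no test was possible. Cd200 had a similar pattern, with 32.5 CPM in WT and 73.8 CPM in cKO Cd8-only cells (ratio 1.19, 0.32 to 2.01) and 0.19 (-1.01 to 1.25) in Cd4-only cells. Ctla4 was lower in the Cd8-only cells at -1.17 (-1.88 to -0.53) and in the cells with both at -1.48 (-2.02 to -0.97). Its ratio was -0.66 (-1.60 to 0.17) in the Cd4-only cells, on 78 and 14 UMIs. In the cells with no coreceptor UMI it was -0.65 (-1.86 to 0.40), on 46 and 9 UMIs, and both of these intervals span 0. The mature SP markers were at 1861 CPM in WT and 1143 CPM in cKO, 7 of 7 above 0 in both, so the cKO cells of this class stood lower in those markers, and the part of this in the receptor values was not tested. In the early class, divided in the same way, the Cd69 ratio was 0.72 (0.25 to 1.19) in the Cd8-only cells. It was -0.78 (-1.37 to -0.21) in the early cells with both coreceptors, and its intervals in the remaining early groups spanned 0.

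The ratio also moved with the length of the gene in these libraries. In mature SP-like cells the median ratio was 0.10 for 778 genes with a span of up to 5 kb, 0.00 for 2288 genes of 5 to 20 kb, -0.27 for 2068 genes of 20 to 50 kb, -0.57 for 1116 genes of 50 to 100 kb and -0.92 for 868 longer genes. In the early class the medians ran from 0.14 to -0.90 over the same bins. Tnfrsf4, with the shortest span of the 10 (2.77 kb), lies in the bin of up to 5 kb. Cd28, with the longest (56.6 kb), was at -0.01 in the early class, where its bin had a median of -0.59. Ctla4 (28.8 kb), Cd5 (21.9 kb) and Cd6 (40.7 kb) belong to the bin with a median of -0.29 in the early class. The part of gene length in the receptors' ratios, and in those of the related genes below, was not tested.

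The related genes were counted from lists of the same kind. Of 13 ligands and cis partners, 3 had 50 UMIs in the early class and 2 were lower in cKO, Cd274 (PD-L1, at -1.69) and Pdcd1lg2 (PD-L2, at -0.60 with an interval of -1.43 to 0.19). Over all genes 35.9% were lower and 7.99% higher in the early class, and 35% and 8.52% in the mature class, and these shares are the background of the counts of related genes that follow. With 3 countable genes a share of this list cannot be set apart from it. In the mature class 2 of 3 were lower, Cd274 at -1.66 and S1pr1, the exit receptor that CD69 opposes, at -1.23 (-1.68 to -0.81). The S1pr1 ratio and the Cd69 ratio had opposite signs in these cells, but the sign of the Cd69 ratio turned under 4 of 12 alternatives. CD69 acts on S1PR1 at the cell surface, and a link between the levels of these transcripts was not tested.

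Among 13 other costimulatory receptors, 9 had enough UMIs in the early class, of which 5 were lower and 1 was higher in cKO (background 35.9% and 7.99%), and 11 in the mature class, of which 5 were lower and 0 were higher (background 35% and 8.52%). In the early class Tnfrsf1b was at -1.60, Tnfrsf18 (GITR, which lies in the same receptor family as OX40) at -1.06 (-1.59 to -0.55), Slamf1 at -0.85 and Icos at -0.60, whereas Slamf6 was at 0.66 (0.35 to 0.97). In the mature class Cd7 was at -2.82 (-3.68 to -2.08), Slamf1 at -2.07 and Cd226 at -1.67. Of 11 other inhibitory receptors, 5 were countable in either class. Pecam1 was at -1.73 (-2.25 to -1.24) in the early and -1.80 (-2.27 to -1.36) in the mature class, and Btla at -1.48 and -1.22. The mature class also had Vsir at -0.81 and, as the single higher gene of the list, Cd160 at 0.63 (-0.20 to 1.42).

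The 24 intracellular partners, the kinases, phosphatases and adaptors through which these receptors signal, were counted in the same way. In the early class 16 of 23 were lower and 0 higher in cKO, next to 35.9% and 7.99% of all genes, with a median of -0.79 compared with -0.25 for all genes, and in the mature class 17 of 24 were lower and 1 higher, next to 35% and 8.52%, with a median of -0.72 compared with -0.24. The lowest of the early class were Pag1 at -1.76, Grap2 at -1.66, Prkcq at -1.37, Ptpn6 at -1.35 and Pik3r1 at -1.30. In the mature class Pag1 was at -2.45, Grap2 at -2.01 and Prkcq at -1.38. The background shares are not matched for gene length, with which the ratio moved in these libraries. The part of gene length in these counts was not tested. From the DP-like to the early class the steps of these 24 genes had a median of -0.15 in WT and -0.28 in cKO. In WT 2 of 24 were higher by more than 1 on the log2 scale, next to 3.85% of all genes, and 0 were lower. In cKO 1 of 24 was higher, next to 2.61% of all genes, and 3 were lower. From the early to the mature class 3 of 24 in WT and 3 of 22 in cKO were lower, next to 7.5% and 6.06% of all genes.

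The pattern of each receptor over 12 points, 6 classes in each of the libraries, was compared with that of 8860 genes by Pearson's r of log2(CPM + 10). The points share their libraries, the cells of neighbouring classes share their clustering, and r is a description only. Cd69 was most like Nr4a1 (r = 0.97), Relb (0.97) and Tm2d3 (0.95), and Pdcd1 most like Mrps6 (0.97), Cd160 (0.96) and Nr4a1 (0.95). Cd200 and Tnfrsf9 had Cd160 in common (0.97 each) and were like each other (0.96). Cd5 was most like Rgs10 (0.98), Nab1 (0.97) and Cd2 (0.97), Cd6 most like Zap70 (0.97) and Cd28 (0.97), Cd28 most like Rap1b (0.98) and Id3 (0.98), and Cd2 most like Itm2a (0.98). Tnfrsf4 was most like Pim2 (0.94). For Ctla4 the highest values were those of Rrm2b (0.90), Tiam1 (0.90) and Xrcc5 (0.88), and its r with the other 9 receptors lay between -0.41 (Cd28) and 0.13 (Tnfrsf4).

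Most early cells with a Tnfrsf9 UMI, after thinning to 1000 UMIs, held no Cd200 UMI. A Cd200 UMI was present in 5 of 25 WT cells with a Tnfrsf9 UMI and in 15 of 582 without one. In cKO it was present in 3 of 19 and in 11 of 428. These counts pool both early clusters. In cluster 10 alone they were 3 of 17 and 4 of 57 in WT, and 1 of 8 and 3 of 20 in cKO.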

How the data were processed

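Thymus cells of 1 WT and 1 Eif4g2 cKO mouse were profiled by droplet single-cell RNA-seq (DNBelab C4). The authors processed the reads with dnbc4tools (version 2.1.3 in the series' design text, 3.0 in the matrix header) on mm10 and deposited raw UMI counts per gene and barcode. The lowest total of a barcode was 1000 UMIs. The oligo libraries were not analysed here.

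Cells with at least 50 genes and at most 10% mitochondrial UMIs were kept. Counts per 10000 UMIs were log-transformed, and 2000 variable genes without the 10 receptors, 61 related genes and Eif4g2 gave 30 principal components, 20 neighbours and Leiden clusters at resolution 1.0 (Scanpy 1.11.5, leidenalg 0.10.2, Python 3.11.15). The CPM of each cluster was compared with the mean over all clusters, in each library where it had at least 20 cells, and averaged. Among marker lists with at least 3 markers higher by 0.5 (log2), the list with the highest mean gave the name. A name also required that no other list held more of the cluster's 10 leading genes. Doublets were not called. UMIs were summed per class and library and scaled to CPM. Intervals are exact Poisson (levels), exact conditional binomial (log2 ratios) and Clopper-Pearson (shares of cells), computed with SciPy 1.17.1, and cover counting error only. A ratio needed 50 UMIs over both sides, a difference of 0.5 (genotypes) or 1 (stages) on the log2 scale, and a floor of 3 UMIs replaced 0. Where no cell held a UMI, the upper limit given for the share is 3 over the number of cells, not a Clopper-Pearson limit. The calculations were tested on simulated data. Positions come from GENCODE M21 (GRCm38), in which 21379 of 21926 genes were found by their Ensembl identifiers.

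All 10 receptors are named. Of the related genes, at most the 5 with the largest differences in a list are named (some are not reported here), and for each receptor the 3 genes of highest r, with at least 200 UMIs, were found. The receptors and all lists were chosen with earlier results of these data known. Of 12 alternative settings, 10 were planned, and 2 were chosen after seeing the data, as was the division by coreceptors.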

Additional observations from a re-analysis of the deposited data

How the results depend on the processing

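Each value was recomputed under 12 alternatives, 2 of them (clusters 10 and 12 left out, cells with a Foxp3 UMI left out) chosen after seeing the data. Of 740 values of single receptors, 529 stayed within their counting interval, 194 moved further, and 17 that had been past the threshold changed sign. The Ctla4 ratio stayed below 0 under all 12, from -1.04 to -0.83 in DP-like, -1.02 to -0.56 in early and -1.37 to -0.97 in mature cells. The Tnfrsf4 ratio did so under the 9 that gave a value in early cells (-4.22 to -2.98) and under all 12 in mature cells (-3.00 to -1.36). Cd5 and Cd6 in early cells stayed below 0, at -0.65 to -0.38 and -0.72 to -0.45. The cause of the changes below was not tested.

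The number of receptors lower in cKO among DP-like cells, 1, became 2 with 1000 to 10000 UMIs and at most 3% mitochondrial UMIs, at resolution 0.6, with each library clustered alone, with receptors and related genes kept in the clustering, with a mean over cells, with a minimum of 20 UMIs and with seed 2, 3 with marker z-scores, and 4 at resolution 1.6. The number higher there, 1, became 0 at resolution 1.6, with the receptors kept, with z-scores and with seed 2. In early cells the number lower, 4, became 2 under the stricter filter, with libraries alone and with the median ratio set to 0. The number higher, 1, became 0 at resolution 1.6, with libraries alone, receptors kept, z-scores and seed 2, and 2 without clusters 10 and 12. In mature cells the number lower, 2, became 9 with z-scores. The number higher, 3, became 0 under the stricter filter, z-scores and the mean over cells, and 1 at resolutions 0.6 and 1.6, with receptors kept and without clusters 10 and 12. The number higher in early than DP-like WT cells, 9, became 5 without clusters 10 and 12, because Pdcd1, Cd200, Tnfrsf9 and Tnfrsf4 then had fewer than 50 UMIs. The number lower in mature than early cKO cells, 3, became 5 with libraries alone, receptors kept and the mean over cells, and 7 with z-scores.

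With libraries alone, the Pdcd1 ratio in early cells became -0.26, that of Cd69 in mature cells -0.70, the WT step of Tnfrsf9 into the mature class 0.087 and the cKO step of Pdcd1 0.86. With z-scores the mature ratios became -0.73 for Cd69, -0.51 for Pdcd1 and -1.01 for Tnfrsf9. At resolution 1.6 they became -0.30 for Cd69 and -0.57 for Tnfrsf9, and the WT step of Tnfrsf4 became -0.70. The stricter filter gave -0.14 for the mature Cd69 ratio and 0.18 for the WT step of Tnfrsf9. With the receptors kept, the mature Tnfrsf9 ratio was -0.19 and the WT step of Tnfrsf4 -1.10. With seed 2 the WT step of Tnfrsf9 was 0.14 and the cKO step of Pdcd1 0.55. Without clusters 10 and 12 the WT step of Tnfrsf9 was 1.74. No paired analysis was possible because each genotype has 1 library and the results come from no test. Depth limits Pdcd1, Cd200, Tnfrsf9 and Tnfrsf4 in DP-like cells, where none had 50 UMIs.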
